A study of Mus musculus with 2 samples.

Results

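The genes described here are 9 that build the B lymphocyte lineage: the transcription factor genes Pax5, Ebf1 and Spib, the receptor chain genes Cd79a and Cd79b, the surrogate light chain genes Vpreb1 and Igll1, the adaptor gene Blnk and the coreceptor gene Cd72. They were taken by name, as every non-control probe whose gene name, or the gene of whose transcript accession, was one of them. This gave 12 of 55680 probes, or 9 of 34786 genes and transcripts on the array. Cd79a, Pax5 and Cd72 were read by 2 probes each and the other 6 by 1. The 12 probes were well above background on both arrays, so no member was lost to the filter on dim values.

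Both samples were bone marrow LSK cells (negative for lineage markers, positive for Sca-1 and c-Kit), the fraction that contains haematopoietic stem cells and multipotent progenitors, from C57BL/6 mice. Both carried the same disease genotype, Tet2KD/KD with Ezh2Δ/Δ, and came from a transplanted myelodysplastic syndrome (MDS) in secondary recipients, 10 weeks after the transplant. Decitabine (DAC), a cytosine analogue that depletes DNA methyltransferases, had been given to 1 group and phosphate-buffered saline (PBS) to the other. The source labels read 7w DAC and 7w PBS, which does not tell time since treatment from its length. No sample with unaltered Tet2 or Ezh2 was analysed here, so a value here compares 2 treatments of 1 mutant disease and says nothing of what the mutations do. Each group was 1 Cy3-labelled array. No difference can therefore be set against a replicate, and no p-value is given. The sources used here do not give the number of mice behind an array.

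B cells arise from lymphoid-primed progenitors through a chain of transcription factors. E2A proteins, Ikaros, PU.1 and interleukin 7 receptor signalling switch on Ebf1, Ebf1 opens the B-cell genes and helps to start Pax5, and Pax5 then fixes the B-cell fate by activating genes of the B-cell receptor and shutting genes of other lineages. Before an immunoglobulin light chain is made, Vpreb1 and Igll1 (λ5) form a surrogate light chain that pairs with the heavy chain, Cd79a and Cd79b (Igα and Igβ) carry the signal into the cell, and Blnk passes it on. LSK cells lie upstream of B-cell commitment, and a low level of some of these transcripts, called lymphoid priming, is known in multipotent progenitors.

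The probes are short DNA strands of 60 bases, and probes of Pax5, Cd79a and Igll1 are shown because they mark which stretch of each transcript was read. For Cd79a the probe shown is the dimmer of its pair, and the brighter one stands for the gene. Of the Pax5 pair, the first lies at chr4:44658421-44658480 (mm9, minus strand) and the second spans chr4:44550354-44582908 on the same strand, a genomic stretch of 32555 bases that is longer than the probe. The second probe thus joins sequence from separate stretches of the gene. There are 75512 bases between them, so their positions do not overlap. The Cd79a probe shown spans chr7:25684357-25684614 (mm9, plus strand), or 258 bases, and the Igll1 probe lies at chr16:16861104-16861163 (mm9, minus strand).
Pax5 probe 1: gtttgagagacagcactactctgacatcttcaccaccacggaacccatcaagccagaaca
Pax5 probe 2: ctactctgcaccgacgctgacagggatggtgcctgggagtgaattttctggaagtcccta
Cd79a probe 2: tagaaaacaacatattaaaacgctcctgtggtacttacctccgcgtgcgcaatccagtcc
Igll1 probe: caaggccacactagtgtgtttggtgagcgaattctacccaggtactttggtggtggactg
Each of these probes has at least 1 reading frame without a stop codon along its length. The sources used here do not place the probes in exons, introns or UTRs.

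The remaining probes are given by position only (mm9). Ebf1 was read at chromosome 11, 44818438 to 44818497, Spib at chromosome 7, 51781392 to 51781451, Cd79b at chromosome 11, 106172780 to 106172839, Vpreb1 at chromosome 16, 16868559 to 16868618, and Blnk at chromosome 19, 41003426 to 41003485. The Cd72 probes, at chromosome 4, 43460596 to 43460655 and 43460607 to 43460666, overlap by 49 bases, so they are not independent readings of the gene. The other Cd79a probe (accession BC027633) is placed by the file at chromosome 12, 53180558 to 53180617, while the probe of accession NM_007655 lies on chromosome 7; both carry the name Cd79a. No member probe shared a run of more than 16 bases with a probe of another gene, and the longest run that the Vpreb1 probe shared with that of its close relative Vpreb2 was 6 bases. Probes were compared with probes only, not with whole transcripts. Whether the Vpreb1 probe also reads Vpreb2 RNA was not tested.

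The DAC array was the brighter of the pair: 31601 of its probes (56.8%) were well above background, against 27007 (48.5%) for PBS, and 0 probes were saturated. Scaling divided the intensities by the 75th percentile of the 25404 probes that were well above background on both, 813 for DAC and 618 for PBS. A scaled signal of 0 stands for that percentile, and a difference is the scaled log2 signal on DAC minus that on PBS. A gene counts as past 2-fold when this difference is at least 1 or at most −1, and where a gene had several probes the brightest stood for it. The SD of a difference expected from probes printed 10 times or more was 0.26 for the dimmest tercile of measured genes, 0.14 for the middle tercile and 0.09 for the brightest. It covers differences between spots of the same array, not labelling, hybridisation or scanning from array to array, and not mice, sorting or amplification. Of the genes that define the sorted fraction, Ly6a, which encodes Sca-1, had a difference of 0.07 and Kit one of 0.12, and both were well above background on both arrays. The stem-cell genes of the same list differed more: Hlf was at least 2-fold higher on DAC (2438 against 331; 2.49), as was Procr (1.65), while Mecom (0.71) and Cd34 (−0.30) lay within 2-fold and Slamf1 cleared background on neither array. The part of the make-up of the sorted fraction in the members' values was not tested.

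The members did not move as a block. Pax5 and Spib were at least 2-fold higher on the DAC array, Ebf1 and Cd72 were at least 2-fold lower, and the 5 others lay within 2-fold. Over the 18211 measured genes, 10.0% (1824) were past 2-fold on the higher side, 6.84% (1245) on the lower side and 16.9% on either. Scaling over all probes turned that split to 1329 higher and 1850 lower. The 4 members past 2-fold were dim or of middle signal. Pax5, Spib and Cd72 lay in the middle tercile, where 13.2% of genes were past 2-fold higher, 8.81% lower and 22.1% either way. Ebf1 lay in the dimmest, where these shares were 14.1%, 8.55% and 22.7%. Cd79a, Cd79b, Vpreb1 and Igll1 lay in the brightest, with 2.65%, 3.15% and 5.80%. By probe, 3 of the 12 were past 2-fold higher and 2 lower, and of all probes well above background on both arrays 11.5% and 7.13% were. Nothing particular to the members is read from these counts. The median difference of the 9 members was 0.21, with 6 above 0 and 3 below, and that of all measured genes was 0.02. In bulk RNA a change in the number of cells of a type and a change in RNA per cell cannot be told apart.

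**Figure D1:**
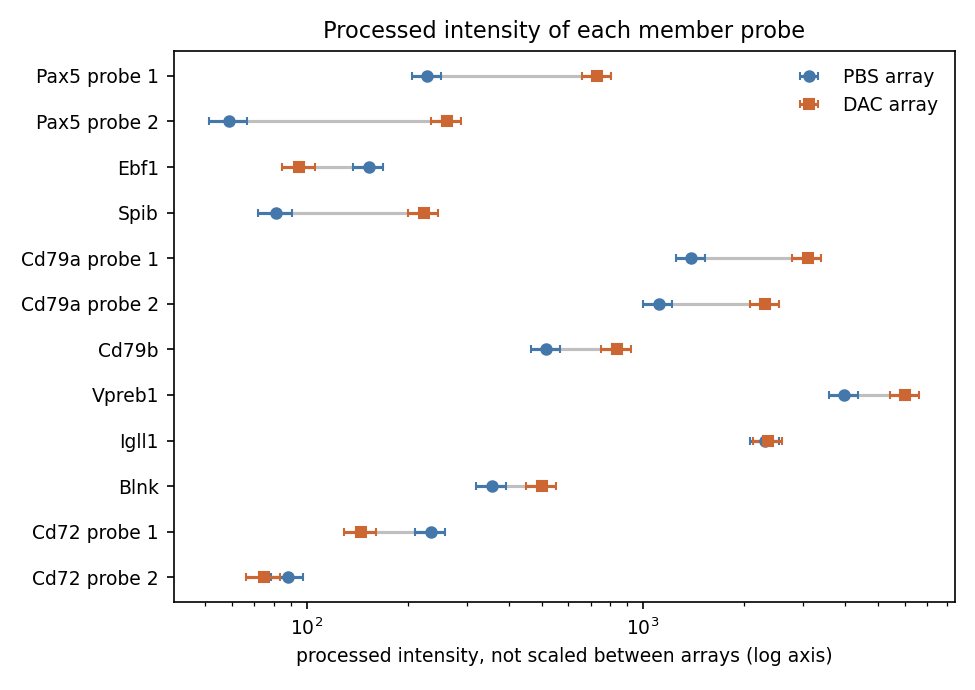
Processed intensity of each of the 12 member probes (log axis, not scaled between arrays) on the PBS array (circles) and the DAC array (squares), 1 array each, with bars for the error that the scanner software gives a spot. The DAC square lies right of the PBS circle for both Pax5 probes, Spib, both Cd79a probes, Cd79b, Vpreb1 and Blnk, left of it for Ebf1 and both Cd72 probes, and on it for Igll1.

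Of the transcription factors, Pax5, the gene that commits progenitors to the B lineage, had a processed intensity of 733 ± 73.4 on DAC and 229 ± 23.2 on PBS on its brighter probe, where ± is the scanner software's error for 1 spot. On its second probe the intensities were 261 ± 26.7 on DAC and 58.9 ± 7.60 on PBS. Both probes were therefore higher on the DAC array, and after scaling the differences were 1.28 and 1.75, or 2.43-fold and 3.37-fold. The brighter probe's difference was larger than that of 93.7% of the measured genes. Pax5 was the only member whose gene-level difference stayed past 2-fold under each of the 11 alternatives to the processing, between 1.08 and 1.68. Its second probe ranged from 0.98, with no background subtraction, to 2.15. Of 797 genes past 2-fold that had a second measured probe, 31.7% were also past 2-fold in the same direction on it, as Pax5 was.

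Ebf1, which encodes the pioneer factor that acts before Pax5, went the other way. Its only probe had intensities of 95.2 ± 10.9 on DAC and 153 ± 16.0 on PBS, a difference of −1.08 with an expected SD of 0.26. It was lower on the DAC array under the 11 alternatives, from −1.35 with quantile normalization to −0.69 with no scaling, and past 2-fold under 8 of them. Those 8 include the filters on dim probes and the mean over probes, which cannot move a gene with 1 probe. A contrast of 2 genes within the same arrays does not depend on a shift between the arrays. Pax5 minus Ebf1 was 2.37 on the log2 scale (expected SD 0.29), a 5.16-fold change in their ratio, and it stayed between 1.89 and 2.60. Alternatives that only shift an array leave this and the later contrasts unchanged, so their ranges reflect the other alternatives alone.

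Spib, a relative of PU.1 that is active in B cells and also in plasmacytoid dendritic cells, had intensities of 224 ± 23.0 on DAC and 81.1 ± 9.40 on PBS. The DAC value was the higher one, with a difference of 1.07. It was higher under the 11 alternatives, down to 0.57 with no background subtraction, and it was past 2-fold under only 4 of them. The filters on dim probes and the mean over probes, which cannot move a gene with 1 probe, were among those 4. Of those 4, Spib could move only with no scaling (1.46). Its distance from Pax5, 0.22, was close to the expected SD of that contrast, 0.19, but it was the lowest value over the alternatives, which reached 0.54 with no background subtraction. Since Spib also marks plasmacytoid dendritic cells, their list was read beside it: 5 of its 7 genes were measured, 0 past 2-fold, with differences from −0.45 (Ly6d) to 0.31 (Irf8) and −0.41 for Siglech, while Klk1 cleared background on neither array and Ccr9 on DAC alone, where it was at least 9.54-fold higher. The part of these cells in the Spib value was not tested.

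**Figure D2:**
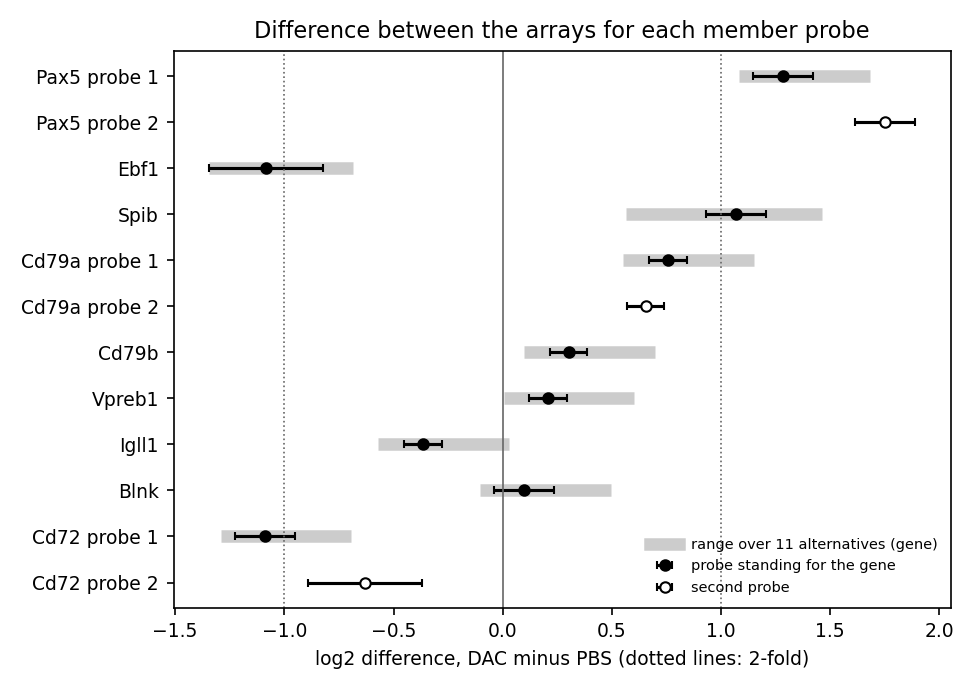
Log2 difference, DAC minus PBS, for each member probe, with 1 array per group; filled points are the probe that stands for the gene, open points a second probe, bars the SD expected from repeated spots, grey bands the range of the gene over the 11 alternatives, and dotted lines 2-fold. The whole band of Pax5 lies beyond 2-fold, those of Ebf1 and Cd72 stay below 0, and those of Igll1 and Blnk cross 0.

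The signalling chains of the receptor were both higher on the DAC array. Cd79a, which encodes Igα, had intensities of 3088 ± 309 on DAC and 1389.7 ± 139 on PBS on its brighter probe and 2307 ± 231 and 1114 ± 111 on the other. Its differences were 0.76 and 0.65 with an expected SD of 0.09, within 2-fold but larger than those of 85.0% and 82.3% of the measured genes. The probes gave like values, although the file places them on different chromosomes. Cd79a stayed between 0.55 and 1.15 across the alternatives, and the value past 2-fold was that with no scaling. Cd79b, which encodes its partner Igβ, had intensities of 836 ± 83.8 on DAC and 516 ± 51.8 on PBS and a difference of 0.30, with a range of 0.10 to 0.70. Cd79a minus Cd79b was 0.45 (0.40 to 0.55), more than the SD of 0.12 expected from repeated spots. That SD does not include the scanner software's ± errors.

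The surrogate light chain genes stand next to each other, with 7395 bases between their probes, and they did not shift equally. Vpreb1, whose product supplies the variable-like part of the surrogate chain, had intensities of 6032 ± 603 on DAC and 3971 ± 397 on PBS, a difference of 0.21, or 0.0041 with scaling over all probes. Igll1, whose product supplies the constant-like part, had intensities of 2361 ± 236 on DAC and 2312 ± 231 on PBS, nearly equal before scaling. Its difference was −0.37 and turned to 0.03 with no scaling. The contrast Vpreb1 minus Igll1 was 0.57 (expected SD 0.12) and lay between 0.57 and 0.65 under the alternatives, many of which cannot move such a contrast. A single probe reads each of these genes, and the expected SD leaves out the scanner software's ± errors here too.

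Blnk, the adaptor that links the receptor to calcium signalling, had intensities of 500.3 ± 50.2 on DAC and 355 ± 35.7 on PBS and a difference of 0.10, within the expected SD of 0.14. It was below 0 under 3 of the 11 alternatives, down to −0.10. Vpreb1 too lay within its expected SD of 0.09 under some scalings (0.0041 over all probes), and Igll1 did with no scaling (0.03).

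Cd72, an inhibitory coreceptor of B cells that is also found on some myeloid cells, was lower on the DAC array. Its brighter probe had intensities of 145 ± 15.6 on DAC and 234 ± 24.0 on PBS, a difference of −1.09. The overlapping second probe had 74.8 ± 8.82 on DAC and 88.0 ± 9.73 on PBS, a difference of −0.63, which is within 2-fold although 49 of its 60 bases are the same. The gene was below 0 under the 11 alternatives, from −1.29 to −0.69, and past 2-fold under 7. Cd72 and Pax5 lie on chromosome 4 with 1197765 bases between their probes, and Pax5 minus Cd72 was 2.37 (expected SD 0.19; 1.93 to 2.50).

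**Figure D3:**
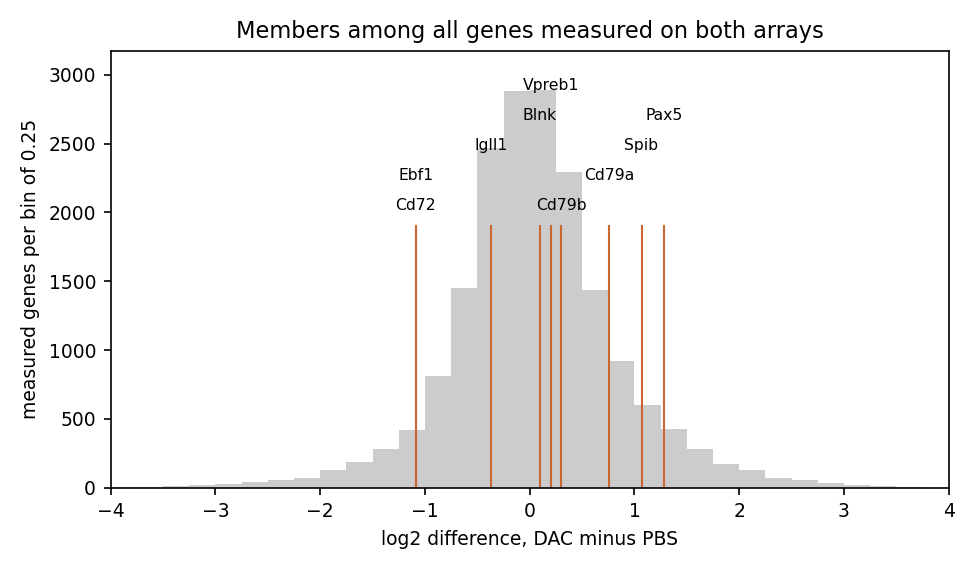
Number of genes measured on both arrays per bin of 0.25 of the log2 difference, DAC minus PBS (grey bars), with the 9 members as vertical lines. Ebf1 (−1.08) and Cd72 (−1.09) lie in the left shoulder, Pax5 (1.28) and Spib (1.07) in the right one, and the other 5 between.

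Since decitabine lowers DNA methylation, which in mammals lies mainly at CG pairs, the promoters of Pax5, Ebf1 and Cd79a are shown with each CG pair in capitals. Methylation was not measured on these arrays. The sequences are the 250 bases before each gene's start in RefSeq (GRCm38.p6), where 8 of the 9 members had an entry and Ebf1 had 2. Pax5 (chr4:44710695-44710944, minus strand) held 19 CG pairs, the first Ebf1 start (chr11:44617850-44618099, plus strand) 9, and Cd79a (chr7:24897247-24897496, plus strand) 6, which is the median over all 32851 promoters in the table.
Pax5 promoter: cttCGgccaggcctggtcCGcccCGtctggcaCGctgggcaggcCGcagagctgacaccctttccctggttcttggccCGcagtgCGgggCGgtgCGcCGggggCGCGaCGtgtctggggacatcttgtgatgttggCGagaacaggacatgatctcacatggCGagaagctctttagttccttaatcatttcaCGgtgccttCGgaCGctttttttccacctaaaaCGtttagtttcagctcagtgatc
Ebf1 promoter, first start: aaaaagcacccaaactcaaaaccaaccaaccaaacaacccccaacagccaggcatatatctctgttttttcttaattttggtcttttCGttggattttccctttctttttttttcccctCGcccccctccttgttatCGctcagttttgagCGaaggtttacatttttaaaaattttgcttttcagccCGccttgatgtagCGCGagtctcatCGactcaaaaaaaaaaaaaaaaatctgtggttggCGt
Cd79a promoter: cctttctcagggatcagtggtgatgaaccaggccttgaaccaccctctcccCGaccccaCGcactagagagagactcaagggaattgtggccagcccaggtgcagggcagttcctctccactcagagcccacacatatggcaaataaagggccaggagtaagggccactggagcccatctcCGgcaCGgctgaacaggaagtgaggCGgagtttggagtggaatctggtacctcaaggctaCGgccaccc
The promoters of the surrogate light chain genes were poor in CG pairs, with 1 in Igll1 and 2 in Vpreb1, as was that of Spib, with 2. Cd72 and Blnk held 6 each and the second Ebf1 start 14. The promoters richest in CG pairs were those of Pax5, which was higher on DAC, and Ebf1, which was lower. The part of promoter methylation in these differences was not tested.

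The same 250 bases were searched on both strands for letters that B-lineage factors are known to bind. The E2A letters CAGGTG occurred in the promoters of 4 members (Blnk, Cd79a, Igll1, Vpreb1), in 4 of 9 promoters against 17.2% of all. In Cd79a they start 154 bases before the gene's start and can be read in the sequence above. The purine-rich ETS letters GAGGAA, of the kind that PU.1 and Spib bind, occurred in Cd72, Cd79a, Vpreb1 and the second Ebf1 start, against 23.3% of all, and the octamer ATGCAAAT in Blnk, against 1.60%. The EBF1 palindrome TCCCNNGGGA (0.779% of all promoters) and the Pax5 core GCGTGAC (1.78%) occurred in 0 of 9. The ETS and E2A letters overlapped in no member promoter. These matches describe the letters in this window and not binding.

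The wider B-lineage programme was read through 57 other genes in 4 groups, and 50 of them were measured. Of these, 9 were at least 2-fold higher (10.0% of all genes were), 2 at least 2-fold lower (6.84% of all) and 39 within 2-fold. A further 3 cleared background on DAC alone (9.43% of all genes did) and 1 on PBS alone (2.81% did). The median of the 50 was 0.32, against 0.02 for all measured genes, with 33 above 0 and 17 below. With normexp background correction 3 were higher and 1 lower, and without scaling 17 and 1, so the counts rest on how background and brightness are handled.

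Among 20 transcription factors that act before or beside the members, 4 were at least 2-fold higher, 0 lower and 16 within 2-fold. Foxo1, which works with Ebf1 to start the B-cell programme, had intensities of 855 on DAC and 248 on PBS, a difference of 1.39 on its brighter probe and 1.46 on the other, and it was past 2-fold under the 11 alternatives. Foxo1 was thus higher where Ebf1 was lower. Ikzf1, which encodes Ikaros, had a difference of 1.65, but its 3 probes ran from −1.05 to 1.65 and their mean was 0.39. Tcf12 (1.08) also had probes of opposite sign, and Lef1 (1.04) was dim, at 0.35 with no background subtraction. The E2A gene Tcf3 had a difference of 0.06, with 0.87 on its second probe, and PU.1, encoded by Spi1, one of 0.98. Bach2 (0.93) and Bcl11a (0.84) were within 2-fold, as were Irf4 (−0.32), Ikzf3 (0.16) and Pou2af1 (0.49).

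Of 8 early lymphoid and recombination genes, 2 were at least 2-fold higher and 0 lower. They were Il7r, the interleukin 7 receptor chain gene (1.37), and Bst1, a stromal and pre-B surface enzyme gene (1.30). Il7r had intensities of 271 on DAC and 79.8 on PBS, and its difference was 0.86 with normexp correction. That of Bst1 was 0.50 with no background subtraction, and its second probe lay within 2-fold (0.78). Rag1, a subunit of the recombinase that joins receptor gene segments, had differences of 0.98 and 2.17 on its 2 probes, while its partner Rag2 had 0.34. Dntt, which encodes the polymerase that adds bases at the joints, had intensities of 38742 and 24440 and a difference of 0.27. Flt3, a receptor gene of lymphoid-primed progenitors, had differences from −1.36 to −0.24 on 3 probes.

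Of 10 measured surface and receptor partner genes, Tnfrsf13c, the BAFF receptor gene, was at least 2-fold higher on both probes (1.33 and 1.58) and Cd38 was lower (−1.10). Tnfrsf13c was at 0.97 with normexp correction, and Cd38 at −0.71 with no scaling. Cd37 had differences of 0.96 and 1.60. Vpreb2 (−0.29) and Vpreb3 (0.64), relatives of Vpreb1, lay on either side of it. Cd180 cleared background on DAC alone and was at least 4.56-fold higher there, and Ms4a1 (CD20), Cd40 and Fcrla were not well above background on either array. Among all genes that did so on DAC alone, 38.3% had a bound of 2-fold or more.

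In the receptor signalling group 12 genes were measured: 2 were past 2-fold on the higher side, 1 on the lower and 9 lay within. The lower one was Lyn, the kinase that first phosphorylates Cd79a and Cd79b, with intensities of 61.7 on DAC and 138 on PBS and a difference of −1.56, past 2-fold under the 11 alternatives. Lyn had 1 probe, so the filters on dim probes and the mean over probes could not move it. Fyn, a kinase of the same family, was higher (1.30), but 0.39 with normexp correction. The adaptor gene Grb2 was higher on both probes (1.18 and 1.16), and at 0.98 with scaling over all probes. Syk (0.02), Btk (−0.10, and −1.22 on its second probe) and Plcg2 (0.78) were within 2-fold. Bank1 cleared background on DAC alone and was at least 2.41-fold higher there. Blk did so on PBS alone and was at least 1.54-fold lower on DAC, and 54.2% of all genes of that kind had a bound of 2-fold or more.

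**Figure D4:**
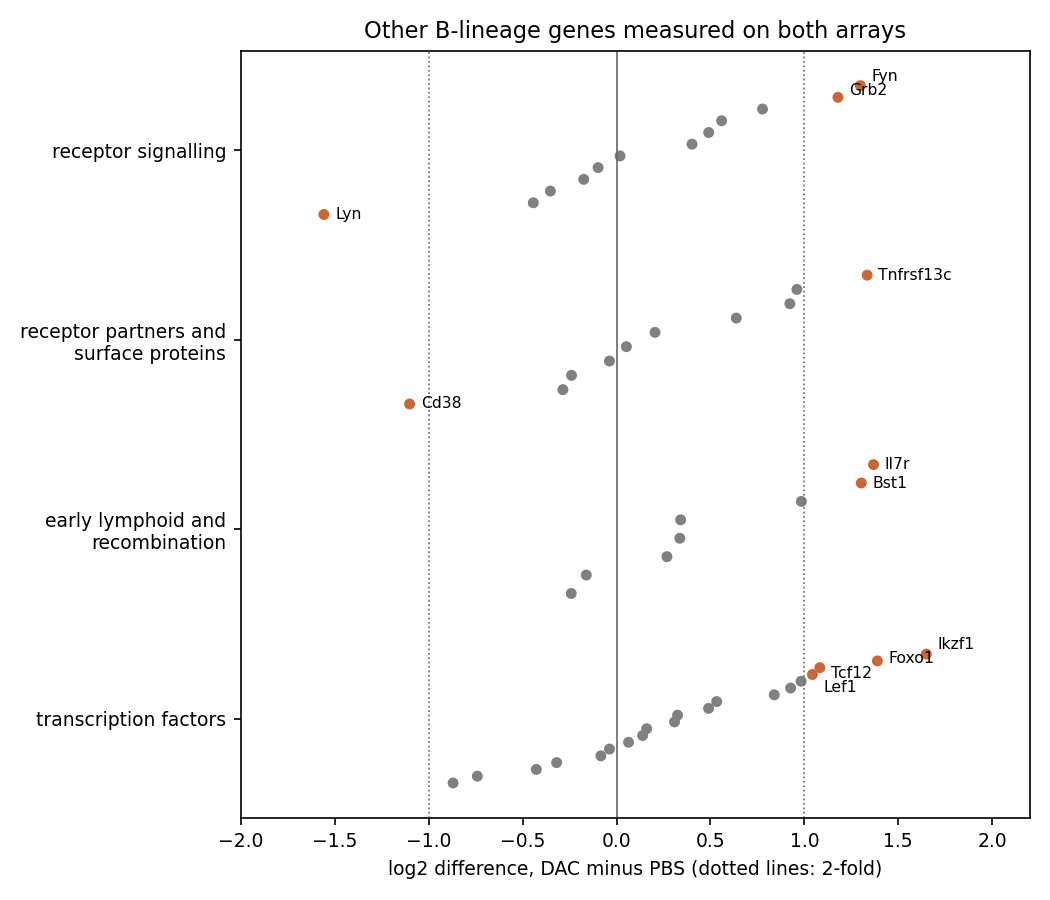
Log2 difference, DAC minus PBS, of the 50 other B-lineage genes measured on both arrays, in 4 groups; each point is a gene, stacked within its group by size, coloured and named where past 2-fold. The named genes on the right number 9 and those on the left 2 (Lyn and Cd38).

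Markers of later B cells and of other cells were read beside these values. Of 5 mature B-cell genes on the array 4 were measured and 0 were past 2-fold, among them Cr2 (−0.24), Cd22 (−0.04) and Fcer2a (0.20), and Ms4a1 was not well above background. Of the 5 plasma cell genes Xbp1 (0.76) and Prdm1 (0.29) were measured, Sdc1 cleared it on DAC alone with a bound of at least 2.52-fold higher, and Jchain and Tnfrsf17 were below the limit on both. T-cell genes had 4 of 7 measured, from 0.10 (Cd3e) to 1.08 (Cd5), with Cd3d above background on PBS alone and at least 4.51-fold lower on DAC, and Cd3g and Cd8a on neither. Natural killer genes had 2 of 5 measured (Nkg7 −0.04, Prf1 0.15), with Ncr1 above background on PBS alone and at least 1.74-fold lower on DAC, Klrb1c on DAC alone and at least 1.05-fold higher, and Eomes on neither. Granulocyte and monocyte genes had 5 of 6 measured, from −1.59 (Ngp) to 0.07 (Ly6g) on their brightest probes. Over all measured probes Itgam ran from −0.55 to 1.58, Csf1r from 0.02 to 2.27 and Camp from −0.31 to −0.13. Adgre1 cleared background on DAC alone, where it was at least 4.97-fold higher. Erythroid genes had 3 of 5 measured, from −0.76 (Hbb-bs) to 0.46 (Slc4a1), with Epor on DAC alone and at least 2.83-fold higher. The part of such cells in the members' values was not tested.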

How the data were processed

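Total RNA of sorted LSK cells was labelled with Cy3 and hybridised to 1 array per group, per the labels' protocols. Scans were read by Feature Extraction 10.7.3.1 from Agilent, with mm9 probe positions, per the file headers. The deposited processed intensity was background-subtracted and detrended by the scanner software and not normalized between arrays, per the file headers. The deposited series matrix holds log2 values with a median of 0 in each column. Its differences matched those of the processed intensity with a slope of 1.00 and an offset of −0.60, which settles scale and direction, while the centring of each probe stays unknown. It served as an alternative only.

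Processed intensities were put on the log2 scale, spots of a probe were averaged without outliers, and 1 of 55681 probes was left out as non-uniform. The scanner's call of well above background had to hold for 50% or more of a probe's spots. The 75th percentile was taken over probes well above background on both arrays, since these were 45.6% of all. A gene on 1 array only got a bound against the higher of its own signal and the lowest signal well above background on the other array. Probes were named through transcript accession (26761), symbol (3819) or synonym (639) with a RefSeq table of GRCm38.p6, used for names, and 24461 kept the file's name. The steps were tested on simulated data (Python 3.11.15, numpy 2.4.6, pandas 2.3.3; limma 3.58.1 in R 4.3.3 for normexp with an offset of 50 and for loess).

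All 9 members and all their probes are named; of the other B-lineage genes, those past 2-fold and a set chosen by role, with further ones for context chosen after their values were seen. Values of some listed genes are not reported here, though counts and medians include them. The members and the lists were chosen with earlier results of these data known. With 1 array per group no test was made, and precision is limited by there being 1 array a side.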

Additional observations from a re-analysis of the deposited data

How the results depend on the processing

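No paired analysis was possible because each group held 1 array. Of the members, Igll1 changed sign under 1 of 11 alternatives and Blnk under 3, and the other 7 kept their direction. The count of members at least 2-fold higher was 2, and 1 with scaling over all probes, median centring, quantile normalization, loess, the series matrix values, normexp correction and no background subtraction; Spib was the one within 2-fold there. With no scaling it was 3, as Cd79a passed 2-fold. The count at least 2-fold lower was 2, and 0 with no scaling, with normexp correction and with no background subtraction, and 1 with the mean over probes. The median of the members was 0.21, against 0.0041 with scaling over all probes, 0.0477 with median centring, 0.0051 with the series matrix values and 0.60 with no scaling. The median of all genes itself shifted by −0.20, −0.16, −0.20 and 0.40 under these. Other B-lineage genes at least 2-fold higher numbered 9, against 17 with no scaling and 3 with normexp correction or no background subtraction, and those at least 2-fold lower 2, against 1 in each of these. Filters on dim probes left the members' values as they were, since the 12 probes passed. The mean over probes could not change a gene with 1 probe. The series matrix values nearly repeat scaling over all probes, as with 0.0051 and 0.0041 for the members' median. The 11 alternatives are therefore not 11 separate checks. Over all measured genes normexp correction gave 721 higher and 752 lower in place of 1824 and 1245, and scaling over all probes 1329 and 1850. Dim signals are limited most: Ebf1, Lyn, Lef1 and Bst1 lay in the dimmest tercile, where repeated spots give an SD of 0.26.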

Other observations

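Known targets of the 2 commitment factors were set side by side, in lists written after values had been seen. Of 8 genes that Pax5 activates 7 were measured: Lef1 (1.04) was at least 2-fold higher and Cd72 (−1.09) lower, the others, among them Cd79a (0.76), Ikzf3 (0.16), Blnk (0.10) and Irf4 (−0.32), lay between, and Cd55 cleared background on DAC alone, where it was at least 1.66-fold higher. The median of the measured ones was 0.16. Of 6 genes that Pax5 represses 4 were measured, with a median of −0.11: Notch1, which directs T-cell fate, was at least 2-fold higher (2.21, and 1.06 on its second probe), Cd28 (−0.26) and Flt3 (−0.24) were not past 2-fold on their brightest probes, and Csf1r, the macrophage colony-stimulating factor receptor gene, had 0.02 on its brightest probe and up to 2.27 on another of 3. Of the remaining pair in that list, Sdc1 cleared background on DAC alone, where it was at least 2.52-fold higher, and Jchain on neither array. Of 8 genes that Ebf1 activates 7 were above 0 and 1 below, with a median of 0.62, while 51.4% of all measured genes were above 0. Of these 8, 5 are members already described (Pax5, Cd79a, Cd79b, Vpreb1 and Igll1), so the count is not separate from their values.

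Probes for immunoglobulin segments gave few signals. Of 9 probes named for heavy or kappa variable segments or the kappa constant gene, 2 were well above background on both arrays, 1 on the DAC array only and 6 on neither. The kappa constant gene Igkc was among the 6, with intensities of 14.6 on DAC and 5.09 on PBS, while both surrogate light chain genes were well above background on the same arrays.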
